A study of Bos taurus with 6 samples.

Results

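The genes described here are the RAB, ARF and ARL small GTPases and the SNARE genes of the VAMP, STX and SNAP families in single bovine morulae. Members were taken by symbol alone, as every gene whose symbol begins with RAB, ARF, ARL, STX or SNAP followed by a digit, or with VAMP. The rule itself reads no measured value, although it was set with earlier results of these data known. In all, 107 of the 13683 symbols that had a row of their own in at least 1 library met this rule: 53 RAB GTPases, 5 ARFs, 12 ARLs, 7 VAMPs, 14 syntaxins, 4 SNAPs and 12 regulators or binding partners that carry such a symbol (for example RAB3IP or ARL14EP). Of these, 103 were kept, against 13185 symbols kept in the whole series. The other 4, RAB27A, RAB9A, VAMP5 and VAMP8, shared a merged locus with a neighbour in some library and are given separately.

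The embryos were made by in vitro fertilization from Bos taurus gametes and grown in mSOF, a culture medium supplemented with bovine serum albumin, under 5% oxygen until day 6. From 72 to 144 h after insemination, starting at the stage of 8 to 16 cells on day 3, the 3 control embryos were kept in 0.1% DMSO and the 3 MAT2A-inhibited embryos in 20 µM FIDAS-5. DMSO is the vehicle, and its content in the treated medium is not stated in the labels. FIDAS-5 inhibits MAT2A, the enzyme that makes S-adenosylmethionine, the methyl donor of cells. Each library comes from 1 whole morula by a full-length polyA kit, and whether the embryos of a group shared a culture is not stated in the labels. The p-values therefore rest on the spread among these embryos, which mixes differences between embryos with technical ones. Embryos that shared a culture would not be independent replicates of the treatment.

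RAB, ARF and ARL proteins are molecular switches. When bound to GTP they sit on a membrane and recruit the coats, motors and tethers that make, move and dock transport vesicles, and each acts at its own compartment. SNARE proteins then drive fusion: a VAMP on the vesicle zips together with syntaxin and SNAP family proteins on the target membrane. In the compacting morula this traffic serves the sorting of proteins to apical and basolateral membranes as the outer cells become an epithelium.

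Expression is given in FPKM, fragments per kilobase of transcript scaled to library depth, so levels of different genes can be set side by side. Depth was 46480000 to 59940000 fragments per library. A fold change is the mean of log2(FPKM + 1) in treated embryos minus that in controls, a scale that makes changes of low genes look smaller. Morula genes were present in every library, with POU5F1 at 254.8 to 431.0 FPKM. Of the cumulus list, VIM was at most 0.501 FPKM, while DCN and LUM reached 11 and 4.81 FPKM in control 2 alone. COL1A2 was at 0.231 to 4.29 FPKM with DMSO and 0.529 to 1.06 FPKM with FIDAS-5, and STAR at 1.16 to 2.19 FPKM in the 6 libraries. Another gene of the cumulus list, SERPINE2, was at 41.0 to 121.8 FPKM in the 6 libraries. The blood gene HBA was at 63.1 to 132.4 FPKM, and HBB at most at 1.72 FPKM. Of the other morula genes, SOX2 was at 27.6 to 41.5 FPKM with DMSO and 45.2 to 50.8 FPKM with FIDAS-5. NANOG was at 2.54 to 20.3 FPKM and 1.16 to 1.88 FPKM in the same order. DPPA3 was at 660.9 to 881.3 FPKM in control embryos and 453.5 to 574.5 FPKM in treated embryos. MAT2A-inhibited morulae 2 and 3 carried Y-linked transcripts, at a summed level of 58.2 and 119.1 FPKM against at most 0.193 in the other 4 libraries. In whole embryos, fewer cells of a type and less RNA per cell cannot be told apart.

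No member of the transport machinery was called as different with the inhibitor. Of 79 members with at least 1 FPKM in at least 3 libraries, which were tested, 0 passed limma with Benjamini-Hochberg adjustment over all 7319 tested genes at 0.05. Over all genes that test called 0.0273% as higher and 0.0137% as lower. The smallest adjusted p among members was 0.483, for RAB3IP. At an unadjusted p below 0.05 there were 4 higher members, ARF2, RAB1B, RAB3IP and STX4, and 1 lower member, RAB29. These are 5.06% and 1.27% of the tested members, beside 3.7% and 2.94% of all tested genes. The 3 treated values lay above all 3 controls for 7 members (8.86%, against 8.27% of all tested genes) and below them for 3 (3.8%, against 5.18%). These shares are near the background, and no excess of differing members is read from them.

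The members' log2 fold changes had a median of -0.026, beside 0.045 over all tested genes, and 37 were above 0 and 42 below. Leaving out control 1 moved the median to 0.010, across 0. For 67 of the 79 members (84.8%) the log2 fold change lay within 0.5 in either direction, against 74.6% of all tested genes. Only ARF2 and RAB3IP exceeded 1 in size. RAB29, at -0.99, also did so with TPM scaling (-1.07), median-of-ratios scaling (-1.02) and a pseudocount of 0.1 (-2.26), VAMP7 with median-of-ratios scaling (-1.001) and STX4 with a pseudocount of 0.1 (1.12). The spread between embryos of a group was alike in members and in all genes, with a median SD of 0.384 and 0.399 on the log2 scale. The shares within 0.5 were not matched for level. The median level was 20.4 FPKM in tested members and 12.8 FPKM in all tested genes.

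**Figure D1:**
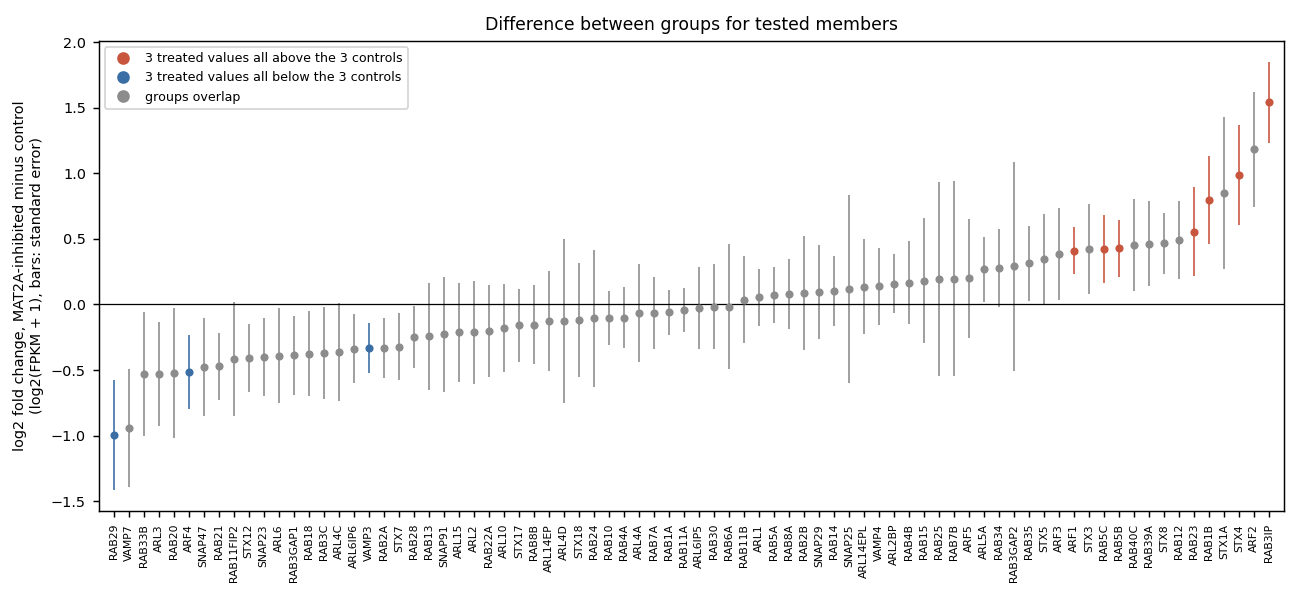
Log2 fold change of 78 of the 79 tested members (MAT2A-inhibited minus control, log2(FPKM + 1), bars are the standard error), ordered by size. Most points lie within 0.5 of 0, RAB3IP stands at 1.54 on the right and RAB29 at -0.99 on the left. Coloured points are the 10 members whose groups do not overlap, and no member passed adjustment over all genes.

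Levels spanned more than 3 orders of magnitude. By mean over the 6 libraries, 12 of the 103 kept members were at 100 FPKM or more, 36 at 10 to 100, 32 at 1 to 10 and 23 below 1 FPKM. Together they made up 0.559% to 0.693% of the FPKM of all kept symbols. RAB11A alone supplied 18.7% to 22.7% of the members' sum, and ARL14EP another 10.9% to 27.6%. The 24 kept members that were not tested included RAB3A, RAB3B, RAB3D, RAB27B, RAB37 and STX11, GTPases and syntaxins of regulated secretion, none above 2.07 FPKM in any library. ARL11 and STX19 were listed at 0 in all 6 libraries. Cufflinks may write 0 where its estimate failed, but kept symbols had status OK in every library. No kept member listed at 0 in some library reached 10 FPKM in another.

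**Figure D2:**
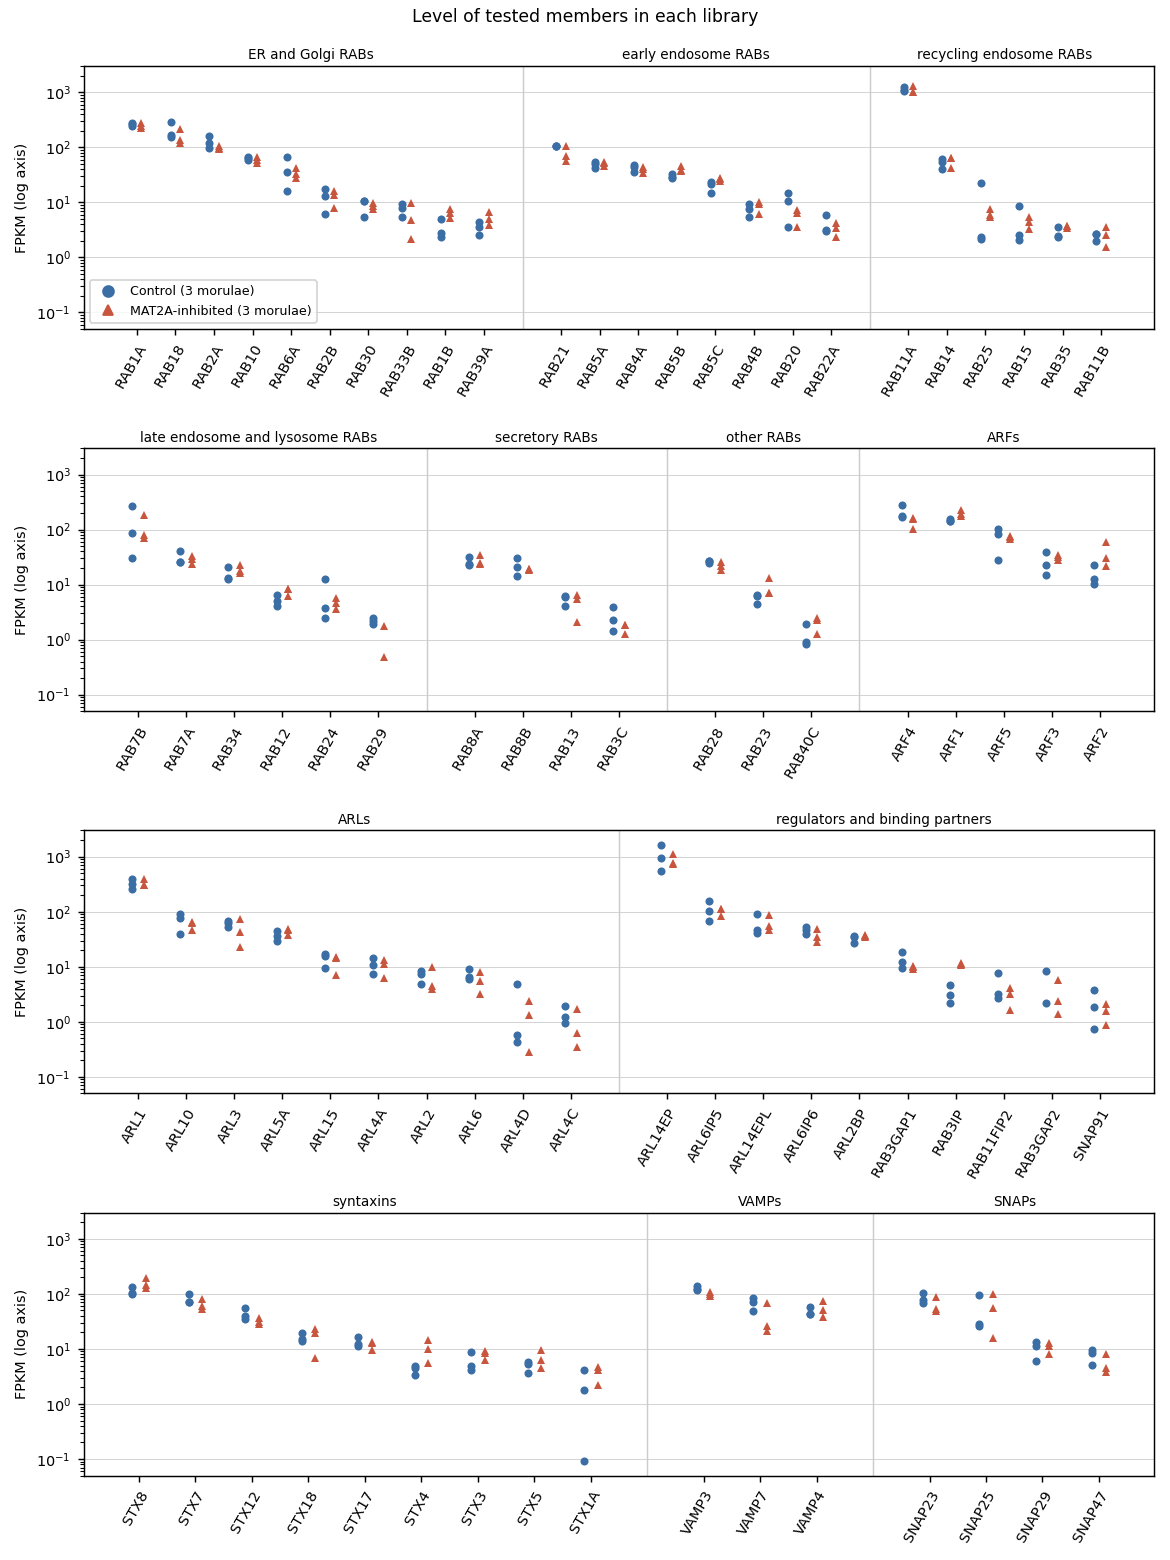
FPKM of 78 of the 79 tested members in each library, on a log axis, grouped by the compartment or family in which they act and ordered by mean level within each group. Circles are the 3 controls and triangles the 3 MAT2A-inhibited morulae. RAB11A and ARL14EP stand highest, and for most genes circles and triangles lie in the same range. The values of RAB29 in MAT2A-inhibited morula 2 and of RAB3GAP2 in control 3, both listed at 0, are not drawn.

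Among RABs of the endoplasmic reticulum and Golgi, RAB1A, which steers vesicles from the endoplasmic reticulum to the Golgi, was measured at 243.3, 271.8 and 264.9 FPKM in the controls, with 245.7, 279.9 and 225.5 FPKM after inhibition. Its within-group SD of 0.125 on the log2 scale was the smallest of the tested members, and its log2 fold change was -0.06 ± 0.17 (SE). Its close relative RAB1B (bosTau8 chromosome 29, 44972614 to 44978112) was far lower, at 2.74, 2.39 and 4.95 FPKM against 5.19, 7.60 and 6.44 FPKM. The groups of RAB1B did not overlap, although control 3 lay just under the lowest treated embryo. RAB1B had a log2 fold change of 0.80 ± 0.33 (limma adjusted p = 0.746). Because RAB1A made up 97.2% to 99.1% of the pair, their summed level was 246.0, 274.1 and 269.9 FPKM in the control group and 250.8, 287.5 and 231.9 FPKM in treated embryos.

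RAB18, a GTPase of the endoplasmic reticulum and lipid droplets, stood at 157.4, 292.5 and 168.1 FPKM with DMSO alone and at 134.8, 217.9 and 119.9 FPKM with the inhibitor. The embryos numbered 2 were the highest in each group and the groups overlapped. RAB2A, which acts between the endoplasmic reticulum, Golgi and late endosome, read 160.0, 121.4 and 97.7 FPKM, then 106.3, 92.1 and 97.0 FPKM. Controls 1 and 2 were above every treated embryo, and control 3 lay among the treated values. RAB2A gave a log2 fold change of -0.33 (limma adjusted p = 0.802), -0.15 without control 1 and -0.50 without control 3. Of the 10 tested members of this group 3 were above 0 and 7 below, where 54.2% of all tested genes were above 0. RAB1B was the 1 member with an unadjusted p below 0.05, beside 3.7% higher and 2.94% lower over all tested genes. RAB6A, a RAB of the Golgi, differed most in proportion within controls, from 16.2 to 66.6 FPKM.

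The early endosome is the station of the RAB5 trio, which gather tethers for the fusion of incoming endocytic vesicles. RAB5A was at 48.8, 54.3 and 42.1 FPKM in control embryos and 46.7, 54.9 and 50.9 FPKM in treated embryos, a log2 fold change of 0.07 ± 0.21. RAB5B (chromosome 5, 57644432 to 57661961) was at 29.0, 27.2 and 32.7 FPKM against 44.9, 39.0 and 36.7 FPKM. RAB5C (chromosome 19, 42897999 to 42919592) showed 21.4, 14.8 and 23 FPKM against 24.3, 28.1 and 26.9 FPKM. In RAB5B and RAB5C every treated embryo was above every control, whereas RAB5A overlapped. Their log2 fold changes were 0.43 and 0.42, that of RAB5C being 0.24 without control 2, and the limma adjusted p was 0.760 and 0.782.

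Summed over the 3 genes, RAB5 transcripts were within a narrow range in each group, at 99.2, 96.3 and 97.8 FPKM in the control group and 115.9, 122.0 and 114.5 FPKM with FIDAS-5. That is 97.8 ± 1.43 against 117.4 ± 4.0 FPKM (SD, n = 3), a sum formed after the single values were seen and not tested. Since RAB5B and RAB5C already lay apart, the sum is not a further result beside them. RAB5A contributed 49.6% ± 6.67 of it in controls and 43.2% ± 2.59 after inhibition, and the ranges overlapped. The genes are similar in sequence, so that reads may have been divided among them.

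RAB21, another GTPase of early endosomes that also moves integrins, was at 105.0, 103.8 and 104.9 FPKM in the controls. Treated embryos had 56.5, 105.4 and 70.9 FPKM. MAT2A-inhibited morula 2 was at the control level and the other 2 were below it. Its log2 fold change was -0.47 ± 0.26 (limma adjusted p = 0.772), -0.27 without MAT2A-inhibited morula 1 and -0.71 without morula 2. A copy on chromosome X that carries the same symbol contributed at most 6.78 FPKM in any library. RAB4A, of fast recycling, and RAB20 had log2 fold changes of -0.10 and -0.52. The 8 tested early endosome RABs were split evenly, 4 above 0 and 4 below.

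Recycling endosomes return membrane and receptors to the surface and feed apical delivery. Their RAB11A (chromosome 10, 12690987 to 12712076) was the most abundant member of all, at 1117, 1258 and 1058 FPKM with DMSO alone. It was measured at 1015, 1318 and 1018 FPKM in the inhibited embryos. The ranges coincide, and the log2 fold change was -0.04 ± 0.17. Its relatives RAB11B and the epithelial RAB25 supplied little of this class: RAB11B was at 1.56 to 3.59 FPKM in the 6 libraries, no more than 0.351% of the trio. RAB14, which links Golgi and endosomes, was at 40.1 to 63.2 FPKM, and RAB35 at 2.36 to 3.79 FPKM.

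Late endosome RABs direct cargo to lysosomes. RAB7A, which was below RAB7B in every library, was at 40.1, 25.2 and 25.6 FPKM in control embryos. After treatment it was at 29.1, 33.0 and 23.5 FPKM, with a log2 fold change of -0.06. RAB12, of late endosomes, was at 4.0, 6.54 and 5.02 FPKM against 6.27, 8.38 and 8.30 FPKM, with 1 treated embryo inside the control range. RAB29 (chromosome 16, 3343974 to 3351233), a GTPase of the Golgi and of stressed lysosomes, was low, at 2.19, 2.46 and 1.91 FPKM in the control group. It was at 1.76 and 0.473 FPKM in inhibited morulae 1 and 3 and listed at 0 in morula 2. All treated values lay below the controls, morula 1 only slightly. RAB29 had a log2 fold change of -0.99 ± 0.42 (limma adjusted p = 0.746). It was -0.66 without MAT2A-inhibited morula 2, -0.20 without morulae 2 and 3, and -2.26 with a pseudocount of 0.1 in place of 1.

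Among the kept secretory RABs, transcripts of the RAB8 pair, which carry vesicles to the plasma membrane and cilium, were the highest. RAB27A was not kept and is given with the merged loci. RAB8A was at 31.9, 23.7 and 22.2 FPKM with DMSO alone against 23.7, 34.2 and 24.6 FPKM, and RAB8B at 21.1, 30.1 and 14.6 FPKM against 18.9, 19.3 and 18.2 FPKM. Both overlapped between groups. RAB13, of tight junction traffic, ranged from 2.10 to 6.52 FPKM, and RAB3C from 1.25 to 3.89 FPKM.

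RAB23, a GTPase that restrains Hedgehog signalling, was at 4.47, 6.07 and 6.49 FPKM in control embryos. The inhibited embryos had 7.09, 7.02 and 13.2 FPKM. The groups did not overlap, with morula 3 well above the rest, and the log2 fold change was 0.56 (limma adjusted p = 0.782) with that embryo and 0.28 without it. RAB28, a ciliary RAB, was at 24.6 to 26.8 FPKM in the control group and 18.2 to 25.7 FPKM in treated embryos, which overlap.

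On the log2(FPKM + 1) scale the largest fold change of a tested member was that of a regulator, while with a pseudocount of 0.1 RAB29 (-2.26) exceeded it (1.79). RAB3IP, also called Rabin8, loads GTP onto RAB8 and is itself recruited by RAB11 (chromosome 5, 43886927 to 43944949). It was at 4.62, 3.03 and 2.23 FPKM with DMSO alone, against 11.5, 10.8 and 11.2 FPKM with FIDAS-5, or 3.29 ± 1.21 against 11.2 ± 0.329 FPKM (SD, n = 3). The 3 treated embryos agreed closely and none came near the highest control. RAB3IP had a log2 fold change of 1.54 ± 0.31 (limma adjusted p = 0.483). It stayed between 1.35 and 1.75 when each library was left out in turn and was 1.58 without MAT2A-inhibited morulae 2 and 3. Its adjusted p did not pass in any of these fits. The 2 GTPases on either side of it in that cascade, RAB11A and RAB8A, had log2 fold changes of -0.04 and 0.08.

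Other members that are not themselves switches or SNAREs overlapped between groups. ARL14EP, a binding partner of ARL14, was at 543.7, 1632 and 949.7 FPKM in control embryos and 776.4, 1121 and 744.4 FPKM in treated embryos. The control range enclosed all treated values. RAB3GAP1, a subunit of the complex that inactivates RAB3 and activates RAB18, was at 9.65, 12.2 and 18.2 FPKM against 9.03, 9.84 and 10.1 FPKM. The log2 fold change of RAB3GAP1 was -0.39, -0.16 without control 3 and -0.58 without control 1. Its partner RAB3GAP2 was uneven, at 8.44 and 2.21 FPKM in controls numbered 1 and 2, listed at 0 in control 3, and at 5.81, 2.42 and 1.39 FPKM in treated embryos. ARL6IP5, a membrane protein of the endoplasmic reticulum, was at 154.6, 69.2 and 102.6 FPKM against 83.0, 110.4 and 113.6 FPKM.

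The ARFs recruit vesicle coats, COPI and clathrin adaptors, at the Golgi. ARF1 (chromosome 7, 2913852 to 2931918) was at 143.8, 141.2 and 157.5 FPKM in the control group. With the inhibitor it was at 223.0, 193.2 and 175.3 FPKM. Every treated value was above every control, 197.2 ± 24.1 against 147.5 ± 8.80 FPKM (SD, n = 3), and the log2 fold change was 0.41 ± 0.18 (limma adjusted p = 0.746). ARF4 (chromosome 22, 44149785 to 44170069), which works with ARF1 at the Golgi and in sorting to cilia, ran the other way. It was at 165.7, 173.1 and 277.5 FPKM with DMSO alone and at 103.9, 158.1 and 164.6 FPKM after inhibition. The groups did not overlap, but the highest treated embryo nearly met the lowest control, and the log2 fold change was -0.52 ± 0.28 (adjusted p = 0.772 by limma). ARF4 was at -0.28 without control 3 and -0.31 without MAT2A-inhibited morula 1.

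In ratio to each other the 2 genes were apart in the groups. ARF1 was 0.867, 0.816 and 0.568 times ARF4 in controls 1 to 3 and 2.15, 1.22 and 1.06 times ARF4 in MAT2A-inhibited morulae 1 to 3. The ratio was below 1 in every control and above 1 in every treated embryo. It was formed after the values were seen and was not tested. Because ARF1 was higher and ARF4 lower without overlap, their ratio had to separate the groups. It is therefore no further result beside the 2 genes. ARF4 made up 44.0% ± 4.69 of the 5 ARFs in controls and 29.5% ± 5.88 with FIDAS-5, while the summed ARF level was 464.9 ± 119.6 against 479.5 ± 32.7 FPKM (SD, n = 3).

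ARF2 (chromosome 19, 46244821 to 46263346), of the same class as ARF1, was at 12.7, 10.1 and 22.4 FPKM in control embryos and 21.4, 58.8 and 30.3 FPKM in treated embryos. Control 3 was above MAT2A-inhibited morula 1, so the groups overlapped, and morula 2 was the highest. The log2 fold change of ARF2 was 1.18 ± 0.44 (limma adjusted p = 0.746) and 0.55 without MAT2A-inhibited morulae 2 and 3. ARF3 and ARF5 had log2 fold changes of 0.38 and 0.20, and that of ARF5 was -0.36 without control 2. ARF1, ARF2 and ARF3 encode nearly the same protein, and reads may be shared among them.

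**Figure D3:**
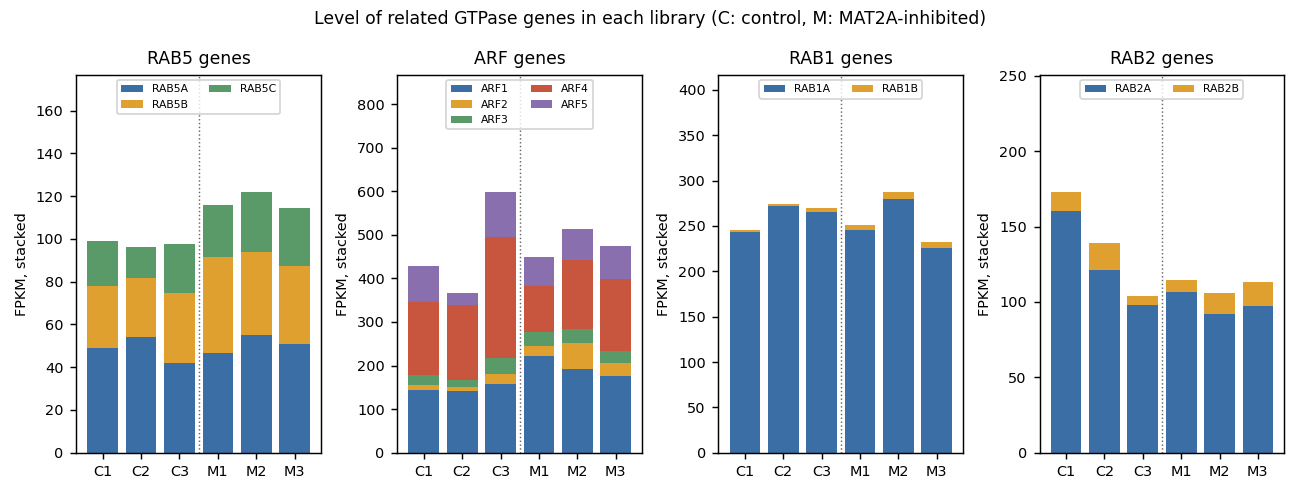
Stacked FPKM of the RAB5, ARF, RAB1 and RAB2 genes in controls 1 to 3 (C1 to C3) and MAT2A-inhibited morulae 1 to 3 (M1 to M3). The RAB5 total is at 96.3 to 99.2 FPKM in the control group and 114.5 to 122.0 FPKM in treated embryos, the ARF4 band is narrower beside ARF1 in M1 to M3, and RAB1A and RAB2A make up most of their pairs.

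ARLs have varied tasks, among them Golgi tethering and ciliary cargo release. ARL1, which recruits golgin tethers to the trans-Golgi, was the highest at 393.8, 263.6 and 322.5 FPKM with DMSO alone and 308.4, 302.8 and 401.0 FPKM in treated embryos. These ranges coincided, with a log2 fold change of 0.05 ± 0.22. ARL10 was at 77.5, 39.5 and 91.4 FPKM against 47.5, 66.1 and 61.1 FPKM. ARL3, which releases lipid-modified cargo inside cilia, was at 53.8, 63.5 and 66.7 FPKM in control embryos and 42.4, 74.7 and 23.3 FPKM in the inhibited group, with MAT2A-inhibited morula 2 above and the other 2 below the controls. The log2 fold change of ARL3 was -0.53, -0.12 without MAT2A-inhibited morula 3 and -0.94 without morula 2. Of 11 tested ARLs 3 were above 0 and 8 below, with a median of -0.18, and 0 had groups that did not overlap. Over all tested genes 54.2% were above 0, and 8.27% and 5.18% did not overlap as higher and lower.

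Among plasma membrane SNAREs, the syntaxin STX4 (chromosome 25, 27413136 to 27418952) was at 3.36, 4.86 and 4.57 FPKM in the control group and 14.6, 5.49 and 9.97 FPKM in treated embryos. All treated values were above the controls, morula 2 by little. The log2 fold change of STX4 was 0.99 ± 0.38 (limma adjusted p = 0.746), 1.33 without that embryo, 0.69 without morula 1 and 1.58 without morulae 2 and 3. SNAP23 and VAMP3 are among the SNAREs that can pair with STX4. SNAP23 was at 77.4, 67.3 and 101.9 FPKM with DMSO alone and at 53.2, 89.3 and 48.0 FPKM after inhibition, which overlap. Its log2 fold change was -0.40, -0.24 without control 3, -0.23 without MAT2A-inhibited morula 3 and -0.67 without morula 2. VAMP3 (chromosome 16, 46455175 to 46464710) was at 116.3, 140.6 and 122.7 FPKM in control embryos and 99.9, 110.6 and 90.1 FPKM in treated embryos.

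VAMP3, the vesicle SNARE of recycling endosomes, thus had each treated value below each control, 100.2 ± 10.2 against 126.5 ± 12.6 FPKM (SD, n = 3). Its log2 fold change was -0.33 ± 0.19 (limma adjusted p = 0.78). VAMP2, its close relative of neurons, stayed at or below 1.81 FPKM and was not tested. The apical syntaxin STX3 was at 4.86, 4.11 and 8.76 FPKM against 9.24, 8.32 and 6.34 FPKM, which overlap. STX1A, a syntaxin of neurons and endocrine cells, reached 4.62 FPKM.

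Late endosome SNAREs include STX7 and STX8, which fuse late endosomes together with VTI1B. STX8 was at 101.2, 102.6 and 134.2 FPKM in the control group and 129.4, 197.9 and 144.5 FPKM in treated embryos. Control 3 lay above the lowest treated value. STX8 had a log2 fold change of 0.47 ± 0.23 (limma adjusted p = 0.759), and 0.29 without MAT2A-inhibited morula 2. STX7 was at 70.1, 71.6 and 101.5 FPKM against 52.8, 61.4 and 79.9 FPKM, with a log2 fold change of -0.32, and VTI1B at 0.02. STX12, of recycling endosomes, was at 39.8, 34.4 and 55.8 FPKM with DMSO alone and 31.1, 36.3 and 28.2 FPKM after treatment (log2 fold change -0.41, and -0.22 without control 3). In autophagy STX17 pairs with SNAP29, and both overlapped between groups, at log2 fold changes of -0.16 and 0.10.

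VAMP7, a vesicle SNARE of lysosomes and exocytosis, was lowest in the 2 embryos with Y-linked transcripts. Its summed level was 71.9, 84.8 and 48.6 FPKM in control embryos. In MAT2A-inhibited morulae 1 to 3 it was 69.6, 26.4 and 21.5 FPKM. Morulae 2 and 3 were below every control, and morula 1 was within the control range. The log2 fold change was -0.94 ± 0.45 (limma adjusted p = 0.75) over all libraries, -1.45 without morula 1, -0.62 without morula 3 and 0.06 without morulae 2 and 3. The symbol covers the gene on chromosome X (38159502 to 38185475) and a short locus on chromosome 13 (14646478 to 14647378). The X row read 33.5, 37.2, 20.8, 37.0, 10.2 and 8.94 FPKM in control embryos 1 to 3 and treated embryos 1 to 3, and the chromosome 13 row 38.3, 47.5, 27.8, 32.6, 16.2 and 12.5 FPKM. Both rows were lowest in the same 2 embryos, and since all embryos with Y-linked transcripts were treated, the 2 cannot be told apart in them.

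**Figure D4:**
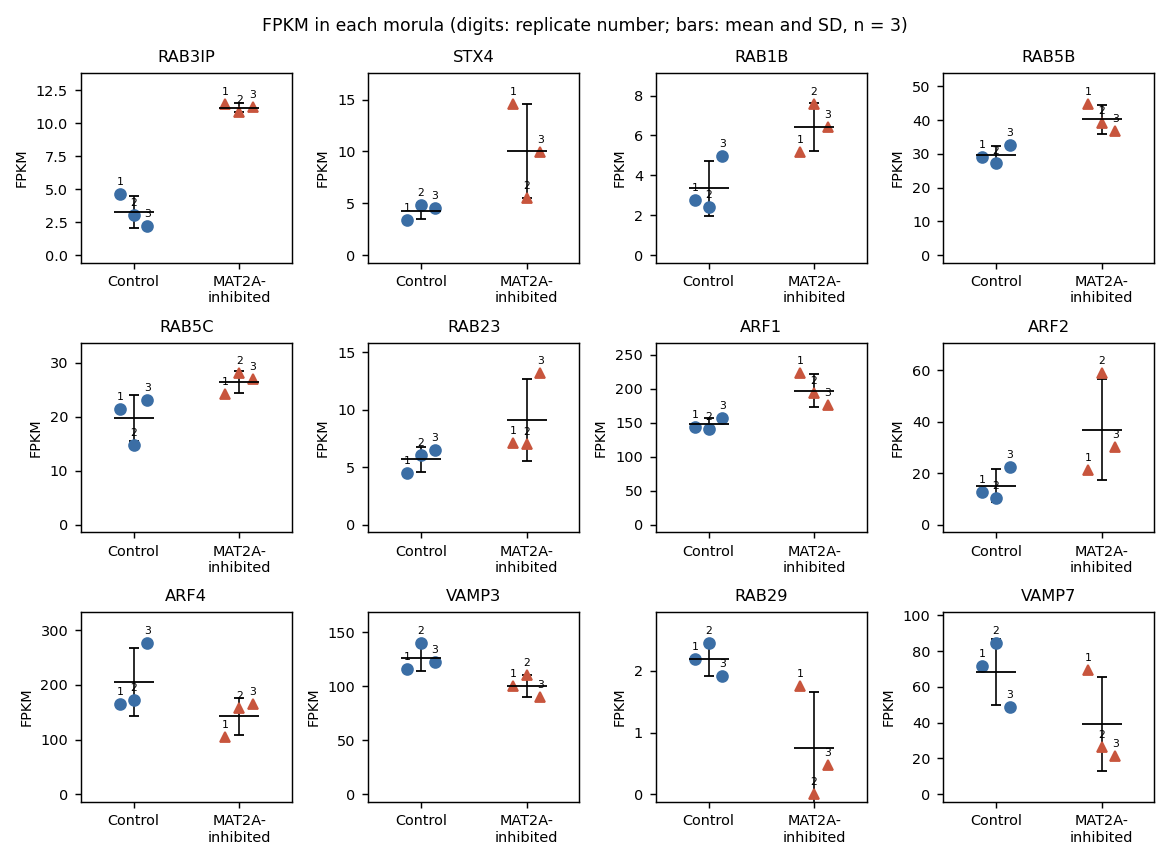
FPKM of 12 members in each morula, controls as circles and MAT2A-inhibited morulae as triangles, with the replicate number beside each point and the mean and SD (n = 3) as bars. RAB3IP is at 2.23 to 4.62 FPKM in the control group and 10.8 to 11.5 FPKM in treated embryos. ARF1 and ARF4 lie apart in opposite directions, and VAMP7 is lowest in MAT2A-inhibited morulae 2 and 3.

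The merged loci hold abundant members that cannot be separated. VAMP8, the SNARE of late endosome and epithelial granule fusion, had a row of its own in MAT2A-inhibited morula 2 alone, at 482.7 FPKM, with its neighbour VAMP5 at 2.85 FPKM. In the other libraries the joint VAMP5 and VAMP8 locus on chromosome 11 (49249760 to 49264015) was at 412.1, 600.1 and 233.3 FPKM with DMSO alone and 480.8 and 307.3 FPKM in inhibited morulae 1 and 3. The values overlapped. RAB9A, of traffic from late endosomes to the Golgi, is on chromosome X and was merged with TCEANC except in control 3, where RAB9A read 34.9 FPKM. The merged locus was at 63.0 and 70.4 FPKM in control embryos 1 and 2 and at 45.2, 39.7 and 34.4 FPKM in treated embryos. RAB27A, of regulated secretion, had a row of its own on chromosome 10 in MAT2A-inhibited morulae 1 and 2, at 14.2 and 13.7 FPKM, and was merged with RSL24D1 or LOC788201 in the others. ARL6IP1 was merged with the ribosomal gene RPS15A in all 6 libraries. No fold change was computed for merged loci.

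A few members varied widely between embryos of the same group. RAB7B, a GTPase between late endosomes and the trans-Golgi, was at 85.5, 29.9 and 268.1 FPKM in control embryos and 70.6, 80.7 and 184.6 FPKM in treated embryos. It was 1.19 to 10.5 times RAB7A, its relative. RAB25, the epithelial member of the RAB11 class, was at 2.36, 2.19 and 22.5 FPKM in the control group and 5.88, 5.47 and 7.46 FPKM in treated embryos. For both genes control 3 was the highest library, MAT2A-inhibited morula 3 the next, and control 2 the lowest.

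Of the 4 trophectoderm markers, KRT8, KRT18 and GATA3 took the same end positions and CDX2 did not. KRT8 was at 81.4, 4.49 and 400.5 FPKM with DMSO alone and 38.7, 109.5 and 229.9 FPKM in treated embryos, and KRT18 at 22.6, 8.67 and 363.4 FPKM against 28.5, 90.4 and 117.0 FPKM. GATA3 was at 83.4 FPKM in control 3, 33.9 in MAT2A-inhibited morula 3 and 6.50 in control 2. CDX2 was at 1.73, 0.276 and 2.77 FPKM in controls 1 to 3 and 2.56, 0.188 and 1.72 FPKM in treated embryos, so it was highest in control 3 but lowest in MAT2A-inhibited morula 2. Both keratins and GATA3 thus had the same highest, second and lowest library as RAB7B and RAB25, and their part in these levels was not tested. SNAP25, the SNARE of neurons and regulated secretion, had another pattern, at 94.4, 26.6 and 28.0 FPKM in control embryos and 16.1, 56.0 and 99.1 FPKM in treated embryos. The log2 fold changes of RAB7B, RAB25 and SNAP25 were 0.20, 0.19 and 0.12, each with an SE between 0.72 and 0.75.

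**Figure D5:**
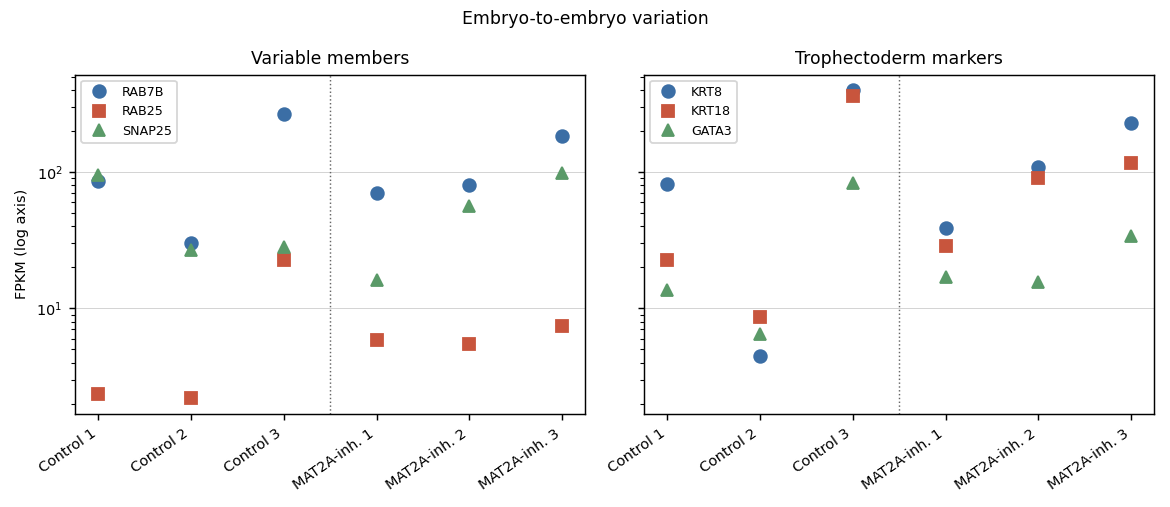
FPKM on a log axis of RAB7B, RAB25 and SNAP25 (left) and of 3 of the 4 trophectoderm markers, KRT8, KRT18 and GATA3 without CDX2 (right), in each of the 6 libraries. RAB7B, RAB25 and the 3 markers are highest in control 3 and lowest in control 2, whereas SNAP25 is highest in MAT2A-inhibited morula 3 and control 1.

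The proteins that regulate or work beside these members were read from the same fit, as a list of exchange factors, activating proteins, effectors, tethers and SNAREs under other symbols. Of 167 such genes kept, 137 were tested and 0 passed limma adjusted over all genes. At an unadjusted p below 0.05 there were 4 higher and 4 lower genes, 2.92% in each direction, beside 3.7% and 2.94% of all tested genes. The median log2 fold change of the list was 0.10, with 80 genes above 0 and 57 below. Over all tested genes the median was 0.045, and 54.2% were above 0. Groups did not overlap for 13 higher and 5 lower genes, or 9.49% and 3.65%, beside the 8.27% and 5.18% given above for all tested genes.

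Of the higher partners, RABIF, a chaperone that stabilises RABs without nucleotide, was at 29.6, 28.8 and 23 FPKM in the control group and 40.8, 37.5 and 39.4 FPKM in treated embryos. Its groups did not overlap, and the log2 fold change was 0.52 ± 0.22 (limma adjusted p = 0.746). The exchange factor DENND2D was listed at 0 in controls 1 and 2, at 5.87 FPKM in control 3, and at 9.26, 6.56 and 7.47 FPKM after inhibition (adjusted p = 0.701). Without control 3 DENND2D passed limma, at an adjusted p of 0.034, in a fit that called 8 of 7141 genes. The controls left in that fit were both listed at 0, with status OK as for every kept symbol. The call thus rests on these values of 0. TBC1D13, a GTPase-activating protein, was at 0.374, 0.0266 and 2.78 FPKM against 2.63, 3.29 and 3.09 FPKM, with control 3 among the treated values.

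Of the lower partners, DENND1A, an exchange factor of RAB35, was at 8.84, 8.12 and 8.56 FPKM with DMSO alone and 5.64, 2.91 and 3.09 FPKM with FIDAS-5. The groups were apart, and the log2 fold change was -1.01 ± 0.31 (limma adjusted p = 0.701), and -0.52 without MAT2A-inhibited morulae 2 and 3. TBC1D1, a RAB GTPase-activating protein known from glucose transporter traffic, was at 3.31, 2.94 and 2.16 FPKM against 0.919, 0.789 and 1.26 FPKM. USE1, a SNARE of return traffic to the endoplasmic reticulum, was at 93.6, 102.9 and 91.9 FPKM in control embryos and 77.3, 52.1 and 62.4 FPKM after inhibition. In TBC1D1 and USE1 every treated embryo was below every control, with a limma adjusted p of 0.701 and 0.732. STX18, which forms a complex with USE1, was at 19.1, 15.2 and 14 FPKM against 6.98, 22.8 and 19.2 FPKM, and the groups overlapped.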

How the data were processed

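Each of the 6 libraries was made from 1 morula. FPKM per gene and its confidence bounds come from the tables that the authors deposited, written by Cufflinks for each library separately, per the file headers. TopHat2 2.0.14, Cufflinks 2.2.1 and the build bosTau8 are named in the submitters' processing notes. Annotation, settings, use of strand and scaling between libraries were not given in the sources used here. Identifiers in the files show assembly per library, which can merge neighbouring genes.

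Rows of 1 symbol were summed. Symbols were kept if present in all 6 libraries, never in a merged locus and of status OK. Depth was recovered from the bounds of short unannotated loci, of which 99.4% to 99.7% were whole fragments within 0.05. Counts per gene were not recovered, so errors come from replicate embryos. Exactly equal values above 0, with no tolerance, made up at most 0% of genes between any 2 libraries.

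Genes with at least 1 FPKM in 3 libraries entered a two-sided limma test (version 3.58.1, R 4.3.3). It used log2(FPKM + 1), group as the only term and a trend of variance with mean, with Benjamini-Hochberg adjustment over all tested genes. The script was tested on simulated data. Named are up to 10 tested members per direction by p, the 2 highest of each role group, members at 0 in some library that reach 10 FPKM elsewhere (none), and 3 partner genes per direction. STX3, STX1A, STX17, SNAP29, RAB25, VTI1B and other members outside this rule, and the sums and ratios, were chosen after their values were seen. Members, lists and role groups were chosen with earlier results of these data known. Positions are as the files list them, the widest extent over libraries. Of the 103 kept members, 103 have their symbol in a RefSeq gene table of another build, which was used for nothing else. Gene sequences were not used here. Some members are not reported here by name, and are in counts only.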

Additional observations from a re-analysis of the deposited data

How the results depend on the processing

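The 16 alternatives were a pseudocount of 0.1, no filter or a mean of at least 5 FPKM, TPM or median-of-ratios scaling, the replicate block, the largest row per symbol, no genes listed at 0, no trend, each library left out in turn, and MAT2A-inhibited morulae 2 and 3 left out. No member passed adjustment in any of these fits. With the replicate block the median of the tested members was -0.026, with 37 above 0 and 0 called. The numbers were not taken as pairs in the main fit. Correlations of same-numbered embryos were 0.046, 0.10 and 0.19, and those of different-numbered embryos ran from -0.21 to 0.10. MAT2A-inhibited morulae 2 and 3 correlated best with the control of their own number, and morula 1 with control 2. These values do not settle whether the numbers mark pairs. With median-of-ratios scaling the median was -0.092 (all genes -0.0056), a move larger than the spread of library medians. Leaving out 1 library gave medians from -0.086 to 0.010, 33 to 40 members above 0, and 0 to 1 partner genes called. The 1 was called without control 3, where 8 of 7141 tested genes were called. VAMP7 changed sign, to 0.062, without MAT2A-inhibited morulae 2 and 3, where the treated group is 1 embryo assumed to vary like the controls. The other members and partners named by p kept their direction wherever tested. Low members are limited by values near 1 FPKM, and 3 embryos per group limit all of them.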
